A study of Mus musculus with 40 samples.

Results

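The inflammation and microglia miRNAs described here are 8 mature miRNAs chosen by name for their known roles in immune cells, mmu-miR-146a-5p, mmu-miR-146a-3p, mmu-miR-146b-5p, mmu-miR-155-5p, mmu-miR-223-3p, mmu-miR-21a-5p, mmu-miR-142a-3p and mmu-miR-142a-5p, out of 1978 mature mouse miRNAs in the count table. All 8 were listed, each with 1 precursor. Their names are given without the mouse prefix from here on. Small RNA libraries were made from the CA1 region of the hippocampus, 1 library for each of 40 mice on a C57Bl/6J background. The groups were wild-type control (WT) mice at 3 months (n = 5) and 6 months (n = 15), and CaMKIIδC transgenic (TG) mice, a heart failure model that overexpresses this kinase isoform, at 3 months (n = 9) and 6 months (n = 11). Controls were littermates. Both sexes were used, and the labels do not give the sex of a mouse. The promoter of the transgene is not given in the sources used here. The transgene itself cannot be checked in miRNA counts. For 2 of the 3-month WT mice the genotype label reads TG while the title reads control, and these mice were grouped by title.

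MicroRNAs are short RNAs that guide Argonaute proteins to target mRNAs, mainly by pairing of the seed, bases 2 to 8 from the 5′ end. The miR-146 family is induced by NF-κB and dampens Toll-like receptor signaling through TRAF6 and IRAK1. miR-155 is induced in activated macrophages and microglia and has a proinflammatory role, whereas miR-223 and miR-142 are produced in cells of hematopoietic origin, miR-223 above all in the myeloid lineage. miR-21 is a broadly expressed miRNA that increases in many injured and inflamed tissues. In whole tissue, fewer cells of a type and less of a miRNA per cell cannot be told apart.

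The mature sequences are shown because the seed separates the 8 miRNAs into families and because miR-146a-5p and miR-146b-5p, whose counts are compared below, are nearly identical. Sequences are from RefSeq (GRCm38.p6) and are written 5′ to 3′ with the seed in capitals. All 8 miRNAs had an entry among 1679 mature sequences.
miR-146a-5p: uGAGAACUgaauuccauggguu
miR-146b-5p: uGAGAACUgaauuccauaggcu
miR-146a-3p: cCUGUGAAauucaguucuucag
miR-155-5p: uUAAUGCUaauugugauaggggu
miR-223-3p: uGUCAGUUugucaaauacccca
miR-21a-5p: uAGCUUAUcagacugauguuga
miR-142a-3p: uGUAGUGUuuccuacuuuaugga
miR-142a-5p: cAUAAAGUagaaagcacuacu

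miR-146a-5p and miR-146b-5p shared their seed with each other and with no other mature sequence in the table. They were identical at 20 of 22 positions and differed by G18A and U21C, with positions counted from the 5′ end and the base of miR-146a-5p given first. Their counts therefore rest on reads that reach the 3′ part of the molecule. The seed of miR-21a-5p was shared with miR-21c only (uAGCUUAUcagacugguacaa), and miR-21c had 200 reads over all libraries against 1355374 for miR-21a-5p. The seeds of the other 5 miRNAs occurred in no other mature sequence.

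The hairpins are shown because both arms of 2 of them are among the 8 miRNAs, with the mature arms in capitals. Mir146 lies on the minus strand at chr11:43374397-43374461 and overlapped no other annotated gene (GENCODE M21).
Mir146: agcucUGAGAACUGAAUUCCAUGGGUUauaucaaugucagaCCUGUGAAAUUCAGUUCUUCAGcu
Mir142 lies on the plus strand at chr11:87756864-87756927, within an intron of the noncoding host gene Mir142hg, and is covered on the opposite strand by Mir142b.
Mir142: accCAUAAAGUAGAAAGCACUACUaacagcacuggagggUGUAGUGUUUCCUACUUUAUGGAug
Mir146b lies on the plus strand at chr19:46342762-46342870, within an intron of the protein-coding gene Mfsd13a.
Mir146b: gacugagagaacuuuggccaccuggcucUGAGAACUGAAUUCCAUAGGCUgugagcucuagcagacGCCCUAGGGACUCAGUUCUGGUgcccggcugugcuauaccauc
Mir155 (chr16:84714140-84714204, plus strand) is exonic in the noncoding Mir155hg. Mir223 (chrX:96242817-96242926, plus strand) is exonic in the noncoding F630028O10Rik. Mir21a (chr11:86584067-86584158, minus strand) lies in an exonic untranslated segment annotated to Vmp1.

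The libraries held 1926108 to 22892729 miRNA counts. The 3-month libraries were deeper, with medians of 18431486 (TG) and 14340558 (WT) against 9239179 (TG) and 9893109 (WT) at 6 months, and 4 libraries, all of 6-month mice, had fewer than 5000000. A count of 3 corresponded to 0.131 to 1.56 CPM (counts scaled to a library total of 1000000) depending on the library. The neuronal miRNAs miR-9-5p, miR-124-3p and miR-128-3p had at least 1394 counts in every library, while the cardiac miR-208a-3p had 1 read in total. The heart and muscle miRNAs miR-1a-3p and miR-133a-3p were present, with at least 644 and 3 counts in every library.

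Levels are given as CPM of miRNA counts after TMM normalization over all 40 libraries. The 8 miRNAs differed widely in abundance. miR-21a-5p ranked 47 of 1978 by its mean level of 2663 CPM, miR-146b-5p ranked 70 (1348 CPM) and miR-146a-5p ranked 134 (278 CPM). miR-142a-5p was at 36.7 CPM, miR-142a-3p at 5.92 CPM, miR-155-5p at 2.59 CPM and miR-223-3p at 1.21 CPM. Small RNA ligation favors some sequences over others, so the order between different miRNAs also carries this bias. miR-146a-3p, the passenger arm of miR-146a, had 6 reads in all, each in a different library, of which 2 were from 3-month WT mice and 4 from 3-month TG mice. It was at 0 in all 26 libraries of 6-month mice. A count of 0 there allows at most 0.181 to 1.56 CPM by counting error alone, so that a level below this floor would not be detectable. These floors are scaled to the library total without TMM factors, so they are not on the scale of the levels. In 6-month TG replicate 9, with a floor of 1.56 CPM, 3 reads of miR-142a-3p were 2.10 CPM after TMM. The filter on low counts removed miR-146a-3p from every fit. In permutation tests of its mean log2(CPM + 1), 6 against 3 months had an unadjusted p of 0.052 in TG mice (exact, adjusted over 4 comparisons 0.208) and of 0.105 in WT mice (exact permutation test, adjusted 0.211). These tests rest on 6 single reads, and with all 6-month libraries at 0 no comparison of the genotypes was possible at that age.

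**Figure D1:**
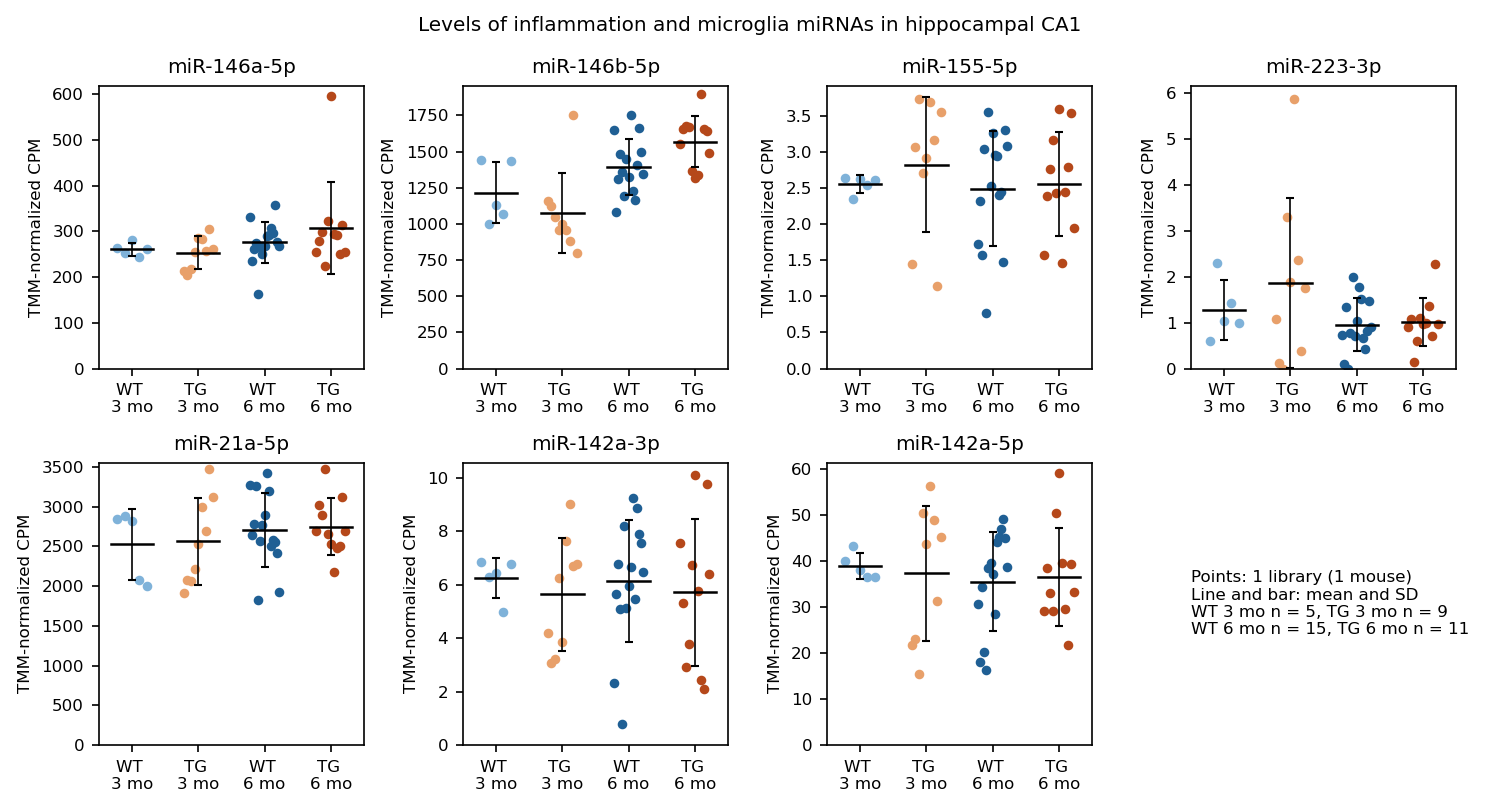
Level of each miRNA in every library (TMM-normalized CPM, linear axis from 0) by genotype and age, where each point is 1 mouse, the line the mean and the bar the SD. The miR-146b-5p points of 6-month TG mice lie between 1317 and 1899 CPM, above 8 of the 9 points of 3-month TG mice. The remaining 3-month TG point, at 1754 CPM, lies within that range, and the groups of the other miRNAs overlap as well.

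The study compared 3 with 6 months of age within each genotype, and TG with WT mice at each age. In TG mice, miR-146b-5p rose between 3 and 6 months of age by 1.48-fold. It was called, meaning an adjusted p below 0.05 and an absolute log2FC above 0.26, and the other 6 tested members were not. Of 629 miRNAs tested in this comparison, 99 were called (15.7%), 47 of them higher (7.47%) and 52 lower (8.27%) at 6 months, so that 1 of 7 is near the background. An unadjusted p below 0.05 was reached by 204 of the 629 (32.4%) and by 1 of the 7.

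In 3-month TG mice miR-146b-5p ranged from 798 CPM over a median of 1002 CPM to 1754 CPM. In 6-month TG mice it ranged from 1317 CPM over a median of 1645 CPM to 1899 CPM. All 11 of the 6-month TG mice were above the 3-month TG mean, and 8 of the 9 younger mice were below the lowest older mouse. The groups overlapped through a single 3-month library, replicate 8 at 1754 CPM. The younger TG mice averaged 1076 ± 278 CPM (SD, n = 9) and the older TG mice 1570 ± 178 CPM (SD, n = 11), which the fit put at a log2FC of 0.56 (SE 0.13, adjusted p = 0.0067, edgeR quasi-likelihood test over all tested miRNAs). Leaving out any 1 library gave a log2FC of 0.52 to 0.68 and adjusted p between 0.000117 and 0.017, with the higher log2FC obtained without the overlapping library.

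The level of miR-146b-5p also moved with sequencing depth. After subtraction of group means, its Spearman correlation with the log2 miRNA count of the library was -0.594 over 40 libraries, and the younger TG libraries were the deeper ones. With depth as a covariate, an alternative chosen after seeing the data, the log2FC was 0.42 with an adjusted p of 0.0476. Without the 4 libraries under 5000000 miRNA counts it was 0.51 with an adjusted p of 0.0213. Without the filter on low counts the call was lost, at a log2FC of 0.49 and an adjusted p of 0.0617.

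**Figure D2:**
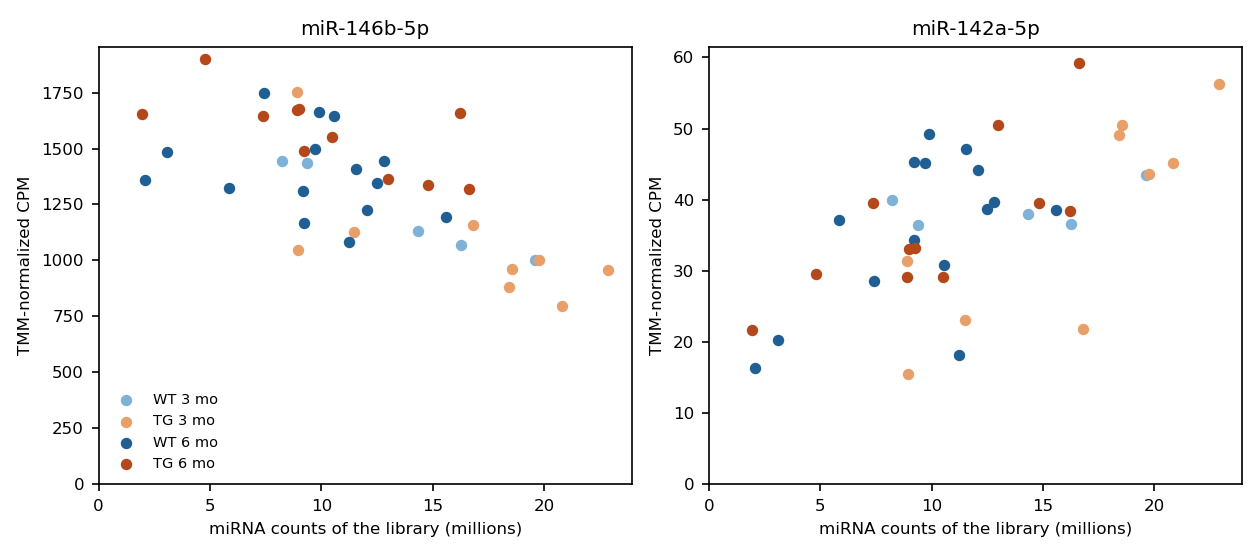
Level of miR-146b-5p (left) and miR-142a-5p (right) in TMM-normalized CPM against the miRNA counts of the library, with the horizontal axis in units of 1000000, where each point is 1 mouse colored by group. miR-146b-5p is lower and miR-142a-5p higher in deeper libraries, with within-group Spearman correlations of -0.594 and 0.641.

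Marker miRNAs of other cell types moved in the same comparison. Both choroid plexus markers were higher at 6 months (miR-204-5p log2FC 0.89 and miR-211-5p log2FC 1.07), and their summed level was 290 to 749 CPM in 3-month and 638 to 1023 CPM in 6-month TG mice. Of 4 vascular markers, miR-126a-3p was higher (log2FC 0.73) and the other 3 were not called, with summed levels of 9581 to 16930 CPM and 13227 to 21002 CPM. All 3 oligodendrocyte markers had a negative log2FC. Of these, 2 were called lower and miR-219a-5p (log2FC -1.13) was not called. Their summed levels were 1193 to 2307 CPM at 3 months and 743 to 1355 CPM at 6 months. Of 5 erythroid markers, miR-451a was called higher (log2FC 0.68), and miR-144-3p and miR-486a-3p were called lower. The erythroid miR-144-5p (log2FC -0.44) and miR-486a-5p (log2FC -0.02) were not called. Summed levels of the 5 were 452 to 1462 CPM and 650 to 1216 CPM. Of the 3 neuronal markers, miR-128-3p was higher (log2FC 0.73), while miR-124-3p (log2FC -0.66) and miR-9-5p (log2FC -0.17) were not called. Of the 2 muscle markers that were tested, miR-1a-3p was called lower (log2FC -0.80) and miR-133a-3p (log2FC -1.14) was not called. None of these lists was at 0 in a group, and their part in the result of miR-146b-5p was not tested.

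In WT mice, miR-146b-5p did not pass the test between the same ages. The 5 younger WT mice had 1444, 999, 1130, 1068 and 1436 CPM, and the 15 older ones ranged from 1084 CPM over a median of 1361 CPM to 1750 CPM. Of the 15 older mice, 12 were above the mean of the younger ones, and the groups overlapped. The means were 1216 ± 210 CPM (SD, n = 5) and 1394 ± 192 CPM (SD, n = 15), and the log2FC was 0.19 (SE 0.13, adjusted p = 0.522, edgeR). The difference between the age effects of the genotypes was itself tested, as the interaction of age and genotype. For miR-146b-5p it was 0.35 on the log2 scale (SE 0.18), with an unadjusted p of 0.0594 and an adjusted p of 0.986 in the edgeR fit over 40 libraries. The age effect was therefore not shown to differ between TG and WT mice.

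In order of mean level, miR-146b-5p was lowest in 3-month TG mice, followed by 3-month WT, 6-month WT and 6-month TG mice. No neighbors in this order were told apart by the test. At 3 months the TG mice were lower by a log2FC of -0.22 (SE 0.19, adjusted p = 0.998, edgeR), and at 6 months the TG mice were higher by a log2FC of 0.16 (SE 0.09, adjusted p = 0.992, edgeR). The comparisons share groups, so that a low 3-month TG group enters both the age effect in TG mice and the genotype difference at 3 months.

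miR-146a-5p, the family member with the same seed, had lower levels than miR-146b-5p in every library. In 3-month TG mice it ranged from 204 CPM over a median of 256 CPM to 305 CPM, and in 6-month TG mice from 223.1 CPM over a median of 292 CPM to 596 CPM. The highest value, in replicate 6 of the 6-month TG mice, stood apart, and the remaining mice of both ages overlapped. The log2FC was 0.29 (SE 0.16, adjusted p = 0.198, edgeR), and 0.16 without that library. In WT mice the 5 younger mice had 263, 253, 281, 243 and 262 CPM and the older ones ranged from 162 CPM over a median of 274 CPM to 357 CPM. The log2FC in WT mice was 0.08 (SE 0.15, adjusted p = 0.837, edgeR). With DESeq2 and 1 RUVs factor, the kind of model that the study used, miR-146a-5p was called in TG mice (log2FC 0.33, adjusted p = 0.0238).

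Within a library, the ratio of miR-146b-5p to miR-146a-5p counts does not depend on the normalization. Its median was 3.77 in 3-month TG, 4.39 in 3-month WT, 4.97 in 6-month WT and 5.83 in 6-month TG mice. It ranged from 3.04 to 5.75 in 3-month TG and from 2.21 to 7.49 in 6-month TG mice, so that the groups overlapped. After subtraction of group means the levels of both family members had a Spearman correlation of -0.026 over 40 libraries. Against the log2 miRNA count of the library the same measure was -0.594 for miR-146b-5p and 0.258 for miR-146a-5p. By median, the 3-month TG libraries were the deepest and the 6-month TG libraries the shallowest. The part of depth in the ratio was not tested.

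miR-146b-3p, the opposite arm of the miR-146b hairpin, was measured at 3.21 CPM on average (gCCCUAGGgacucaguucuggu, seed in capitals). It was also higher in 6-month than in 3-month TG mice (log2FC 0.66, adjusted p = 0.0364, edgeR). It comes from the same hairpin as miR-146b-5p but is a separate count. The call was lost in 8 of 20 fits that left out 1 library (6-month TG replicate 1, 4 or 10, or 3-month TG replicate 2, 4, 5, 6 or 9), where the log2FC was 0.50 to 0.68, and the adjusted p was 0.106 with depth as a covariate.

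miR-155-5p had 1 to 116 counts per library. Its median was 3.06 CPM in 3-month TG and 2.44 CPM in 6-month TG mice, and 2.61 CPM in 3-month WT and 2.53 CPM in 6-month WT mice. All groups overlapped, and the log2FC between ages was -0.15 (SE 0.23, adjusted p = 0.678) in TG and -0.01 (SE 0.22, adjusted p = 0.988) in WT mice, both from edgeR. Its opposite arm, miR-155-3p, had 1 read in all libraries.

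miR-223-3p, the myeloid member, was the least abundant of the 7 tested miRNAs and had the highest coefficient of variation in each group. In 3-month TG mice it ranged from 0 CPM over a median of 1.76 CPM to 5.86 CPM, and in 6-month TG mice from 0.138 CPM over a median of 0.974 CPM to 2.28 CPM. Of the younger TG mice 3 were above the highest older mouse and 2 below the lowest. The log2FC was -0.94 (SE 0.50, adjusted p = 0.191, edgeR), and without replicate 6 of the 3-month TG mice, the one with the highest level, it was -0.51 with an adjusted p of 0.4997. It was -0.15 (adjusted p = 0.913) with depth as a covariate and -0.14 (adjusted p = 0.773) with DESeq2 and 1 RUVs factor. In WT mice the log2FC was -0.40 (SE 0.39, adjusted p = 0.638, edgeR), with medians of 1.03 CPM at 3 months and 0.827 CPM at 6 months. That value ran from -1.10 with the replicate block to -0.06 without 3-month WT replicate 2. The block estimate in WT mice rests on the 5 replicate numbers found at both ages. No library of a 6-month TG mouse held more than 18 reads of miR-223-3p, and 2 libraries, 1 of a 3-month TG and 1 of a 6-month WT mouse, held none.

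miR-21a-5p differed little between the groups. Its median was 2821 CPM in 3-month WT, 2526 CPM in 3-month TG, 2648 CPM in 6-month WT and 2689 CPM in 6-month TG mice, and the lowest and highest mice of all groups were between 1826 and 3472 CPM. The log2FC between ages was 0.12 (SE 0.13, adjusted p = 0.541) in TG and 0.09 (SE 0.15, adjusted p = 0.792) in WT mice, both from edgeR.

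Both arms of miR-142a were detected in every library, and neither passed the test. miR-142a-5p had a median of 43.7 CPM in 3-month TG and 33.2 CPM in 6-month TG mice, with ranges of 15.5 to 56.3 CPM and 21.7 to 59.3 CPM. The log2FC was -0.02 (SE 0.22, adjusted p = 0.973) in TG and -0.13 (SE 0.22, adjusted p = 0.810) in WT mice, both from edgeR. miR-142a-3p had a median of 6.23 CPM in 3-month TG and 5.74 CPM in 6-month TG mice. Its log2FC was 0.06 (SE 0.28, adjusted p = 0.917) in TG and 0.01 (SE 0.27, adjusted p = 0.985) in WT mice, both from edgeR. The 5p arm also moved with depth, with a within-group Spearman correlation of 0.641 over 40 libraries. With depth as a covariate the log2FC of miR-142a-5p in TG mice was 0.38 (adjusted p = 0.256). With DESeq2 and 1 RUVs factor the log2FC of miR-142a-5p in TG mice was 0.26 with an adjusted p of 0.0354. It was not called there, because the unrounded log2FC did not exceed the threshold.

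**Figure D3:**
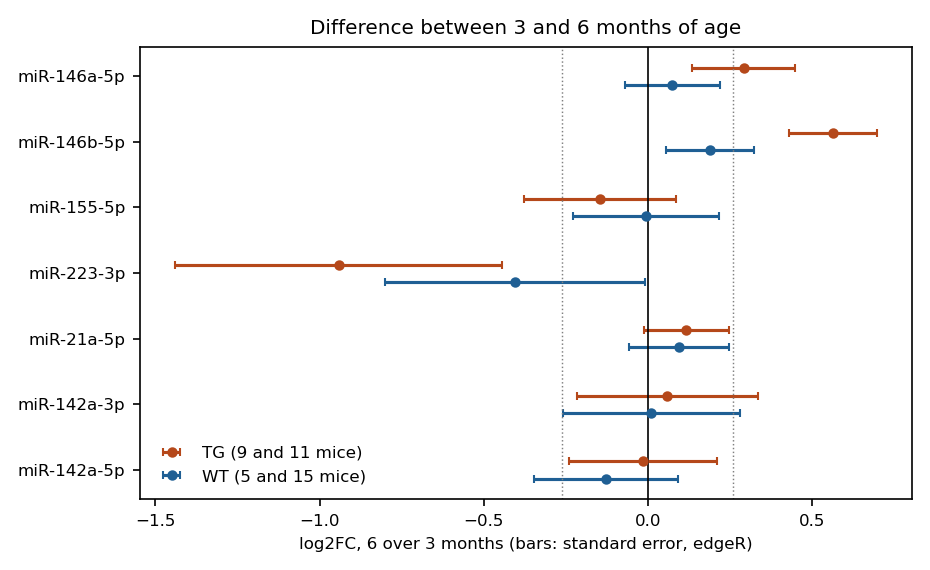
Log2FC of 6 over 3 months of age for the 7 tested miRNAs in TG (9 and 11 mice) and WT mice (5 and 15 mice), where bars are the standard error of the edgeR fit and dotted lines mark a log2FC of -0.26 and 0.26. The miR-146b-5p point of TG mice, at 0.56, is the one that was called, and miR-223-3p has the widest bars.

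The arms of a hairpin are processed from the same precursor. Their read ratio reflects which strand is kept, but it also carries the ligation bias between sequences. Within groups, the 5p and 3p arms of miR-142a had Spearman correlations of 0.641 and 0.438 with the log2 miRNA count of the library. The part of ligation and depth in the ratio was not tested. The 5p arm of miR-142a outnumbered the 3p arm in every library, with a median ratio of 6.11. The median was 5.93 in 3-month WT, 6.68 in 3-month TG, 5.97 in 6-month WT and 7.26 in 6-month TG mice. The highest ratio, 21.0, came from a 6-month WT library with 1 read of the 3p arm. No difference in the mean log2 ratio passed the test in 4 comparisons. It was 2.70 ± 0.42 in 3-month and 2.77 ± 0.52 in 6-month TG mice (SD), a difference of 0.07 (exact permutation p = 0.733), and differed by -0.05 in WT mice (exact permutation p = 0.840). TG minus WT mice was 0.06 at 3 months (exact permutation p = 0.793) and 0.18 at 6 months (permutation p = 0.418). These tests were two-sided, and the adjusted p was 0.990 for each of the 4. The sequence of miR-142b (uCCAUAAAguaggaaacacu, seed in capitals) matches the reverse complement of miR-142a-3p over 20 bases, and it had 4 reads in all.

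**Figure D4:**
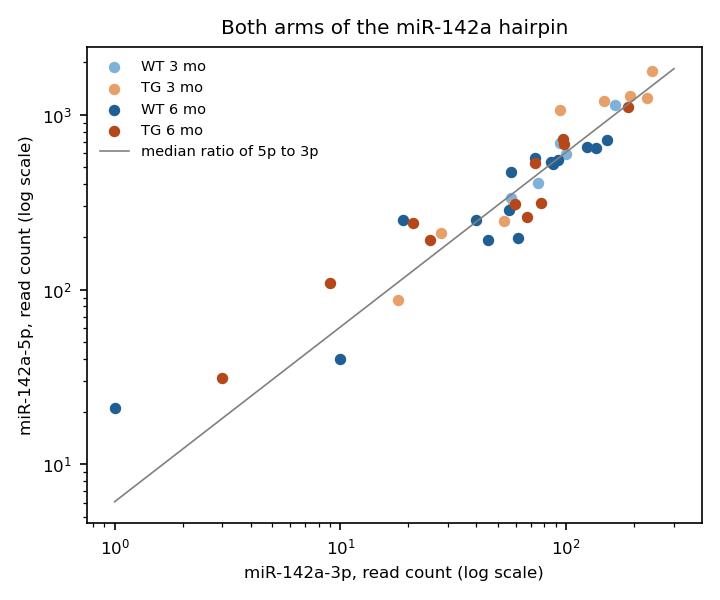
Read counts of miR-142a-5p against miR-142a-3p in each library on log scales, where each point is 1 mouse and the line is the median ratio of 6.11. All points have more 5p than 3p reads, and the points of the 4 groups lie along the same line.

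In WT mice none of the 7 tested miRNAs was called between 3 and 6 months, where 1 of 660 miRNAs was called (0.152%) and 102 had an unadjusted p below 0.05 (15.5%). Neither age showed a called difference between TG and WT mice. At 3 months 0 of 695 miRNAs were called by edgeR and by DESeq2, and 7 had an unadjusted p below 0.05 (1.01%). At 6 months 0 of 612 were called by edgeR and by DESeq2, and 3 had an unadjusted p below 0.05 (0.49%). Among the 7 miRNAs the log2FC of TG over WT ranged from -0.22 for miR-146b-5p to 0.58 for miR-223-3p (SE 0.69) at 3 months. The value of miR-223-3p turned to -0.39 with depth as a covariate and to -0.32 with the replicate block. It ran from 0.14 without 3-month TG replicate 6 to 0.97 without 3-month WT replicate 2. It ranged from -0.11 for miR-142a-3p to 0.16 for miR-146b-5p at 6 months. miR-146a-5p had a log2FC of -0.07 (SE 0.18) at 3 months and 0.14 (SE 0.13) at 6 months. The interaction of age and genotype was called for 0 of 699 miRNAs, with 14 at an unadjusted p below 0.05 (2%), and ranged from -0.56 for miR-223-3p to 0.35 for miR-146b-5p among the 7. The interaction of miR-223-3p turned to 0.094 with the replicate block. Without the 3-month WT mice whose labels conflict, no call among the 7 changed, and miR-146b-5p had a log2FC of 0.19 between ages in WT mice and -0.20 for TG over WT at 3 months.

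Over the 7 tested miRNAs the median log2FC between ages in TG mice was 0.06, with 4 higher and 3 lower, beside a median of -0.09 over all 629 tested. In WT mice it was 0.01, with 4 higher and 3 lower, beside -0.02 over all 660.

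A further 21 miRNAs comprise the opposite arms and paralogs of the 8 and other miRNAs linked to leukocytes, macrophages or inflammation. Of these, 10 were abundant enough to be tested between ages. In TG mice 4 of the 10 were called, 3 higher and 1 lower at 6 months, beside 15.7% of all tested miRNAs (7.47% higher and 8.27% lower), with 5 of the 10 above and 5 below 0 and a median log2FC of 0.08. The 3 higher ones were miR-146b-3p, miR-187-3p (log2FC 0.78, adjusted p = 0.0266, edgeR) and miR-22-5p (log2FC 0.73, adjusted p = 0.0021, edgeR). miR-150-5p, a miRNA of mature lymphocytes, was lower (log2FC -0.71, adjusted p = 0.0418, edgeR). Of the 4, miR-22-5p kept its call in every alternative run, whereas miR-146b-3p, miR-150-5p and miR-187-3p lost it in 8, 12 and 3 of 20 fits without 1 library. The count was 2 without 6-month TG replicate 1, 3, 4 or 8 and without 3-month TG replicate 4, 6 or 9, and it was 1 without 3-month TG replicate 5. It was 2 without the shallow libraries (74 of 636 over all miRNAs). It was 1 with depth as a covariate (66 of 629) or with no filter on low counts (70 of 1621). It rose to 5 with DESeq2 (142 of 629 over all miRNAs) and without 6-month TG replicate 7 or 3-month TG replicate 3 or 8. It was 6 with DESeq2 and 1 RUVs factor (251 of 629). In WT mice 0 of 10 were called, beside 1 of 660 over all miRNAs. The count was 1 with DESeq2 and 1 RUVs factor (41 of 660) and 3 with the replicate block (250 of 660). Between genotypes 0 of 10 were called.

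The 3 most abundant of these 21 miRNAs were miR-22-3p (1256 CPM), miR-342-3p (196 CPM) and miR-150-5p (119 CPM). miR-22-3p and miR-342-3p were not called in TG mice, with log2FC of 0.27 and -0.19. The summed level of the leukocyte markers miR-223-3p, miR-142a-3p, miR-142a-5p and miR-150-5p ranged from 116 to 291 CPM in 3-month TG and from 80.4 to 209 CPM in 6-month TG mice, and from 163 to 232 CPM in 3-month WT and 69.7 to 226 CPM in 6-month WT mice. miR-150-5p made up most of this sum. Blood left in the tissue can hold the same leukocyte miRNAs. Its part was not tested.

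The co-variation between the miRNAs across mice is given as a description, over 40 libraries and after subtraction of group means, and the libraries also share differences in depth and composition. Both arms of miR-142a had a Spearman correlation of 0.657, and miR-146a-5p had one of 0.656 with miR-142a-5p. miR-223-3p had one of 0.567 with miR-142a-5p. miR-146b-5p had -0.427 against miR-142a-5p. The 5 erythroid miRNAs did not go the same way. In the order miR-142a-5p, miR-142a-3p, miR-223-3p and miR-146b-5p, the erythroid miR-486a-5p had correlations of -0.758, -0.754, -0.689 and 0.464. For miR-486a-3p they were -0.595, -0.708, -0.386 and 0.0612. In contrast, miR-144-5p had 0.786, 0.597, 0.607 and -0.504, and miR-144-3p had 0.419, 0.487, 0.471 and -0.359. For miR-451a they were -0.103, 0.0555, -0.241 and 0.356.

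**Figure D5:**
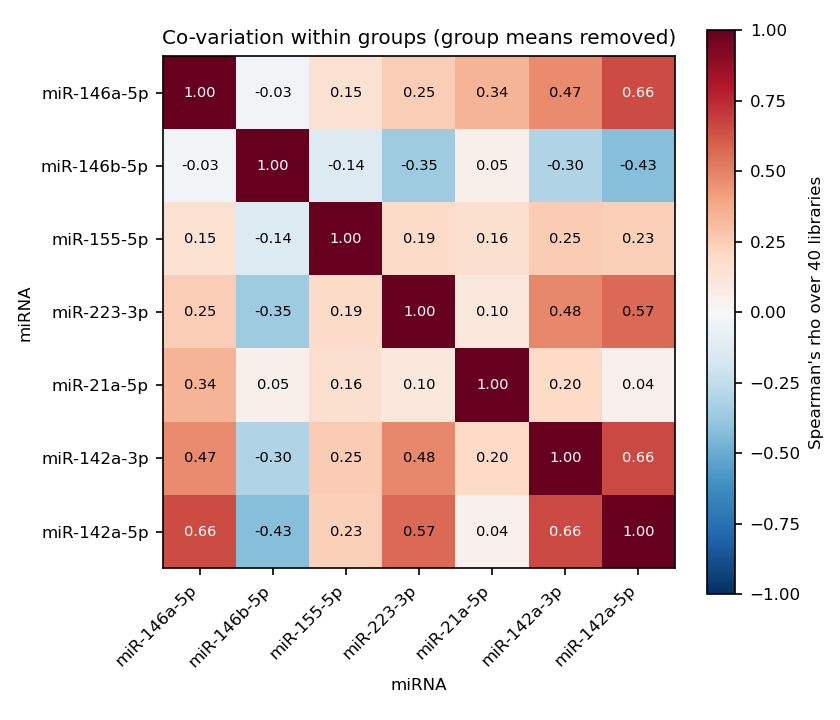
Spearman correlation between the levels of the 7 tested miRNAs over 40 libraries after subtraction of group means, from -1 (blue) to 1 (red). The highest values are those of miR-142a-5p with miR-142a-3p (0.657), miR-146a-5p (0.656) and miR-223-3p (0.567), and the lowest is that of miR-146b-5p with miR-142a-5p (-0.427).

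The miRNAs whose pattern was most like that of each member by the same measure are named by rank, again as a description. miR-146b-5p was closest to miR-30d-5p (0.783), miR-330-5p (0.708) and miR-434-5p (0.696). miR-146a-5p was closest to miR-26a-5p (0.679), miR-411-5p (0.66) and miR-142a-5p (0.656). miR-142a-5p was closest to miR-30c-5p (0.934), miR-124-5p (0.924) and miR-379-3p (0.914), and miR-142a-3p to miR-32-5p (0.865), miR-30e-5p (0.848) and miR-186-5p (0.817). For miR-223-3p the values were 0.729 for miR-136-3p and 0.72 for miR-669a-3p and miR-669o-3p. For miR-21a-5p they were 0.626 for miR-30a-5p, 0.602 for miR-29a-5p and 0.531 for miR-27a-3p. miR-155-5p had no close partner, with a highest value of 0.455 for miR-19a-3p, followed by miR-5121 (0.415) and miR-574-3p (0.398).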

How the data were processed

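Small RNA libraries (NEBNext kit) of CA1 tissue were sequenced from 40 mice. Per the labels and the study's methods, the authors trimmed adapters with cutadapt (2.8 in the labels) and quantified reads with mirdeep2 against miRBase and mm10. The deposited counts are whole reads per mature miRNA and precursor, and a second deposited table holds the authors' RPM values, which were used only to check the counts. Where a miRNA had several precursors, the row with the highest total was kept, and 52 rows of spike-in sequences were left out (0.0851 to 0.2523% of counts). Totals ranged from 2656368 to 36547011 counts per library. Counts were filtered (filterByExpr defaults), TMM-normalized and tested with edgeR 4.0.16 (quasi-likelihood F test, robust) in R 4.3.3, separately for each comparison, with Benjamini-Hochberg adjustment over all miRNAs tested. A miRNA was called at an absolute log2FC above 0.26 with adjusted p below 0.05. Arm ratios (0.5 added to each count) were compared with two-sided permutation tests, exact or with 100000 resamples, over 8 tests, and those of miR-146a are not given because its 3p arm had 6 reads. Alternatives were DESeq2 1.42.0 with and without 1 RUVs factor, other normalizations, no filter, summed precursors, a joint fit, a replicate block and leaving out libraries. Depth as a covariate and leaving out shallow libraries were added after seeing the data. The fits were also run on simulated counts, drawn independently for each miRNA, and no result given here rests on that run. The miRNAs named were the 8 chosen ones, the called and the 3 most abundant of the related list, and the 3 most similar to each; all lists were chosen with earlier results of these data known. Intervals and floors cover counting error only.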

Additional observations from a re-analysis of the deposited data

Results flagged for a closer look

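miR-146b-5p in replicate 8 of the 3-month TG mice was at 1754 CPM, far from the other mice of its group, the next highest of which was at 1158 CPM and the lowest at 798 CPM. The gap to the nearest mouse was 0.623 of the range of the group, above the critical value of 0.493 for 9 mice (Dixon's test). The test covered the 8 miRNAs in both 3-month groups, 16 sets of values, of which 1 was marked in this way, and chance marks about 1 in 20. The 6-month groups, with more than 10 mice each, were not tested. Among them miR-146a-5p in replicate 6 of the TG mice was at 596 CPM, with the next highest mouse at 323 CPM and the lowest at 223.1 CPM.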

How the results depend on the processing

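The fits across all miRNAs called 99 in TG mice between ages and 142 with DESeq2, 251 with DESeq2 and 1 RUVs factor, and 66 with depth as a covariate. In WT mice they called 1, against 13, 41 and, with the replicate block, 250. Among the 8 miRNAs, the count called in TG mice was 2 with DESeq2 and 1 RUVs factor and 1 in all 20 fits without 1 library. The count was 0 with no filter, where 70 of 1621 miRNAs were called. In WT mice it was 0 in all 20 fits without 1 library and 1 with the replicate block. Without TMM factors, 4 of 32 group means moved by more than 1 SD.

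Mice with the same number did not deviate together in every pair (mean correlation 0.226 in TG mice, with 7 of 9 pairs over 0.1, 0.0351 in WT mice, 0.0068 between genotypes at 3 months, and 0.259 at 6 months with 9 of 11 pairs over 0.1). In no comparison was every pair over 0.1, and the main fits took the number as a name only. Mice with different numbers were not compared, so this check cannot show that the number carries no information. A number found in only 1 group of a comparison adds nothing to its block estimate. The block estimates thus rest on 9 number pairs in TG mice, 5 in WT mice, 5 at 3 months and 11 at 6 months. In the WT pairs, 6-month replicates 4 and 5 were shallow libraries, with 3091291 and 2080504 miRNA counts. With the replicate block, TG mice had 124 calls, miR-146b-5p had a log2FC of 0.59 (adjusted p = 0.0138) and miR-142a-5p was called in WT mice (-0.76, adjusted p = 0.0394), while miR-146b-3p was no longer called in TG mice (adjusted p = 0.0805) and no other call among the 8 miRNAs changed.

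Several uncalled values changed sign. In TG mice miR-142a-3p was -0.074 with the replicate block and -0.047 to 0.18 without 1 library. miR-142a-5p was 0.26 with RUVs (DESeq2, adjusted p = 0.0354, log2FC not above the threshold). It was 0.056 with the block, 0.069 without the shallow libraries, 0.38 with depth as a covariate and -0.12 to 0.079 without 1 library. miR-342-3p was 0.11 with RUVs and 0.13 with depth. In WT mice miR-146a-5p was -0.10 with the block. miR-155-5p was 0.0058 with DESeq2, 0.063 with RUVs, 0.0013 in the joint fit, 0.026 without the shallow libraries, 0.054 with depth and -0.053 to 0.039 without 1 library. miR-142a-3p was -0.024 with no filter, -0.63 with the block and -0.069 to 0.077 without 1 library, and miR-142a-5p was 0.041 with RUVs and 0.064 with depth. miR-223-3p for TG over WT at 3 months was -0.32 with the block and -0.39 with depth, and its interaction was 0.094 with the block. The miR-142a arm ratio in TG mice was -0.056 with 5 added, and in WT mice -0.098 to 0.013 without 1 library. Over the 35 values of the 7 tested miRNAs in 5 comparisons, 45 of 357 values from other settings and 97 of 840 without 1 library changed sign. None of these passed both the adjusted p and the log2FC threshold. The causes were not tested.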
